A study of Mus musculus with 8 samples.

Results

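The interferon-regulated gene families were taken as the genes of the deposited table whose symbols begin with Ifit, Ifitm, Ifi, Ifih1, Oas, Gbp, Irf, Irgm or Isg, followed by a number where the family uses one. The rule found 70 of 19348 genes, and it used names only, not measured values. They were 19 Ifi, 12 Irf, 10 Oas, 10 Gbp, 7 Ifitm, 6 Ifit, 3 Isg and 2 Irgm genes, with Ifih1. Mx1 and Mx2, which the rule also covers, were not analysed here. Irf2bp1, Irf2bp2, Irf2bpl and Isg20l2 share the start of a symbol and not the function of the family: the first 3 are named for binding the factor Irf2.

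Liver and epididymal white adipose tissue (eWAT) of 12-week-old C57BL/6 mice on a normal diet, fasted for 16 h, were profiled by RNA-seq, with 2 libraries per tissue and genotype and 8 libraries in all. Crtc1-/- animals carried a whole-body deletion made with CRISPR/Cas9 guides around exons 2 to 4 of Crtc1, a coactivator of the factor CREB, and the paper names wild-type littermates, Crtc1+/+, as the controls. The labels give neither the number of founders nor whether liver and eWAT with the same replicate number came from 1 mouse, so p-values measure the spread between these libraries. Levels are given as counts per 1000000 (CPM) scaled by TMM within each tissue, in the order labelled Crtc1-/- replicates 1 and 2, then labelled Crtc1+/+ replicates 1 and 2. A gene was called where its adjusted p was under 0.05, by the quasi-likelihood test of edgeR across the whole table of the tissue.

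Crtc1 itself stood at 58.5, 33.6, 32.6 and 33.7 CPM in eWAT and at 22.1, 18.0, 11.7 and 9.86 CPM in liver. Its level was thus no lower under the label Crtc1-/- (log2 fold change 0.48 ± 0.37 SE in eWAT, adjusted p = 0.396, and 0.89 ± 0.27 in liver, adjusted p = 0.184). The counts sum reads over the whole gene and do not separate the targeted exons, so they do not check the genotype. The paper itself reports the knockout by PCR over the targeted exons and by Western blot. Groups are named by their labels throughout.

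The libraries held 16560085 to 19721481 counts, at which 3 counts, the floor used here, equal 0.152 to 0.181 CPM. The eWAT libraries also differed in tissue content. The 12 epididymis markers summed to 70754 and 80254 CPM in both eWAT libraries labelled Crtc1+/+ and to 21.8 and 10.6 CPM in those labelled Crtc1-/-, and the 10 adipocyte markers summed to 2468 and 3758 CPM against 44534 and 20529 CPM. The 10 hepatocyte markers took 10.05% of the counts in eWAT labelled Crtc1-/- replicate 2, and 0.0749% to 0.601% in the other eWAT libraries. Counts of called members without that library, and with the epididymis genes removed, are given once for eWAT and not beside each gene. In bulk tissue, fewer cells of a type and less RNA per cell cannot be told apart.

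Interferons are secreted proteins that bind receptors at the cell surface and act through JAK kinases and STAT factors to raise a broad set of antiviral genes. Type I interferons act mainly through a complex of STAT factors with IRF9, which binds an element called the ISRE, and interferon gamma acts through STAT dimers at an element called the GAS. The Oas enzymes, Ifit and Ifitm proteins and Isg15 limit viruses at the level of RNA, entry or protein modification, the Gbp and Irgm proteins are GTPases that act on the membranes around intracellular microbes, and the Irf proteins are transcription factors that drive or shape the response.

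Promoters were searched for the letters of both elements, since many genes of these families are known as direct targets. RefSeq entries of 250 bases before to 50 bases after the gene start (GRCm38.p6) were found for 57 of the 70 members. The ISRE letters (GAAA, any 2 bases, GAAA), read on both strands, so that TTTC, any 2 bases, TTTC counts as well, were present in 29 of the 57 (50.9%) and in 1079 of all 27025 genes with an entry (3.99%). The GAS letters (TTC, any 3 bases, GAA), which are their own reverse complement, were present in 14 of the 57 (24.6%) and in 2582 of 27025 genes (9.55%). The ISRE letters were found in 5 of 5 Gbp, 5 of 6 Ifit, 2 of 2 Irgm, 4 of 7 Oas, 8 of 15 Ifi, 2 of 7 Ifitm, 1 of 3 Isg and 1 of 11 Irf promoters, and in that of Ifih1. Many of these genes are copies of one another, so their promoters are not independent. A match is a description of letters and not of a bound site.

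The windows of 4 members that were higher in eWAT labelled Crtc1-/- are shown for their ISRE letters, and that of another, Irf1, for its GAS letters. Each runs 5′ to 3′ along the strand of the gene, with 20 bases on either side as far as the gene start, where the windows were cut, and capitals mark the matched letters. The Gbp2 window lies at chr3:142620584-142620633 (plus strand), the Ifit3 window at chr19:34583353-34583436 (plus), the Isg15 window at chr4:156200855-156200916 (minus), the Oas1a window at chr5:120907526-120907565 (minus) and the Irf1 window at chr11:53769904-53769952 (plus). The single match of Gbp2 begins 59 bases before the start, the matches of Ifit3 begin 156 and 122 bases before it, and Isg15 and Oas1a carry overlapping matches within 78 and 20 bases of it.
Gbp2: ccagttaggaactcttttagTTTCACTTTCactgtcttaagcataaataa
Ifit3: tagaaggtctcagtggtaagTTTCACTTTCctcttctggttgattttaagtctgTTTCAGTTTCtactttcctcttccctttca
Isg15: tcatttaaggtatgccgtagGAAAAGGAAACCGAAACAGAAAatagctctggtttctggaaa
Oas1a: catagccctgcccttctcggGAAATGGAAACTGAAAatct
Irf1: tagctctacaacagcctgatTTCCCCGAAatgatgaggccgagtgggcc

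Across the members, 39 of 43 ISRE matches began before the annotated start and 34 of 43 began within the 150 bases before it, with a median of -59. The ISRE letters were present in 5 of 10 members called higher in eWAT that had an entry and in 20 of 38 tested and not called. Among the other genes called higher in eWAT, 30 of 758 with an entry held them (3.96%), against 451 of 12202 tested in eWAT with an entry (3.70%).

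**Figure D1:**
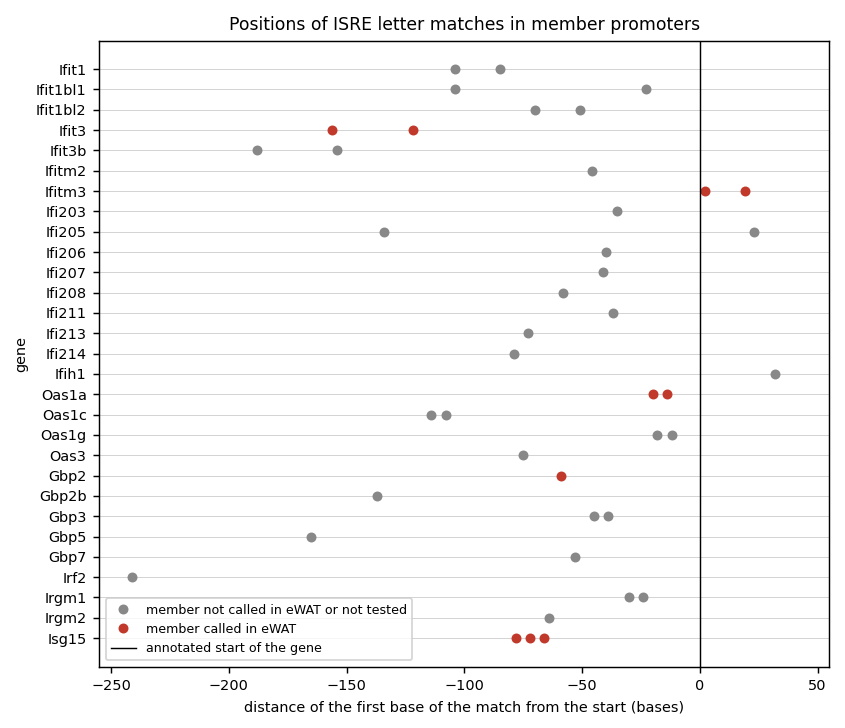
Distance in bases (x axis) of the first base of each ISRE letter match from the annotated gene start (black line), 1 line per member with a match (y axis), with members called in eWAT in red. Of the 43 matches, 34 lie in the 150 bases before the start, and those of Ifitm3 lie after it.

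In eWAT, 16 of 59 tested members were called, against 12.2% of the 15391 genes tested. Of these, 14 were higher in the libraries labelled Crtc1-/- (6.65% of all genes) and 2 were lower (5.54%). The median log2 fold change of the tested members was 1.13, against -0.05 over all genes, and 51 members had a positive value, against 48.5% of all genes. The groups did not overlap for 43 members that were higher (31.3% of all genes) and 6 that were lower (35.4%). At an unadjusted p under 0.05, 28 members were higher (16.2% of all genes) and 3 lower (17.1%), and at the threshold of the paper, an unadjusted p under 0.01 with a change over 2-fold, 16 were higher (8.37%) and 2 lower (7.54%). With 2 libraries against 2, a permutation test of a single gene cannot give a p below 0.333.

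These counts depended on both libraries labelled Crtc1+/+. No member, and no gene of the table, was called without replicate 1 or without replicate 2 of that group. At an unadjusted p under 0.05, 22 and 18 members were left in those fits, and the members' medians were 1.18 and 1.27. Leaving out replicate 2 of the eWAT labelled Crtc1-/-, in which hepatocyte RNA was found, left 15 members called (12.3% of all genes), 13 of them among the 16 (Gbp4, Irf4 and Oas2 were not), and with the epididymis genes removed 16 were called (12.8% of all genes), 15 of them shared. When libraries were scaled by their totals in place of TMM, 8 members were called, 6 of them higher, and 587 of the 1662 genes called were higher in place of 1023 of 1875. Under that scaling the medians were -0.35 over all genes and 0.84 over the members.

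**Figure D2:**
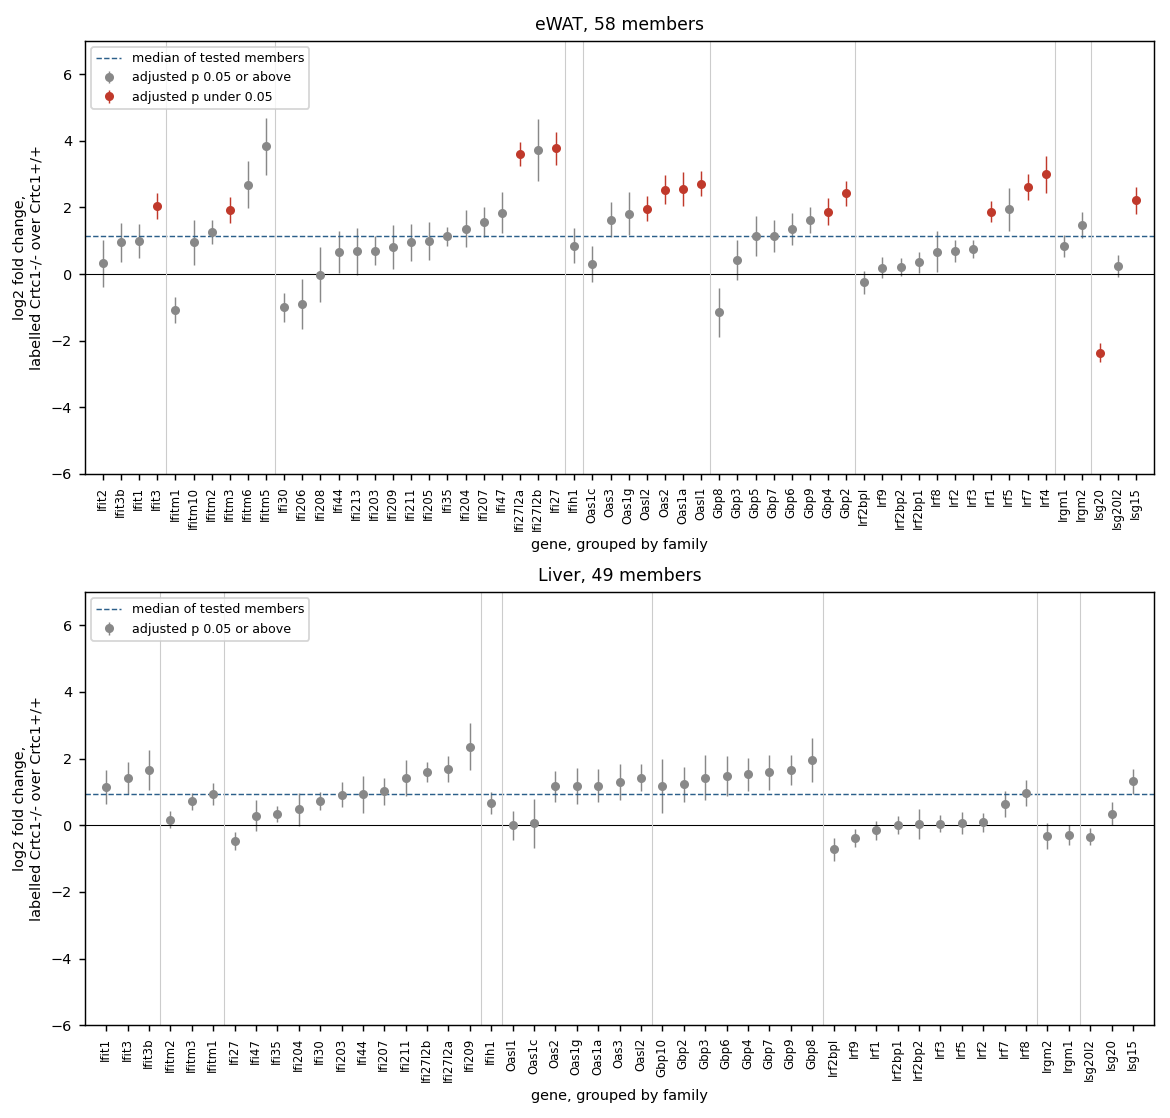
Log2 fold change of tested members, all but 1 in each tissue (y axis, bars show SE) by gene and family (x axis) in eWAT (top) and liver (bottom), with called members in red and the members' median as a dashed line. The medians are 1.13 in eWAT and 0.92 in liver, and the red point below 0 in eWAT is Isg20.

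The largest called changes belonged to the Ifi27 family, small membrane proteins of mitochondria and the nuclear envelope that are among the most strongly interferon-induced transcripts. Ifi27l2a stood at 939, 828, 73.2 and 73.7 CPM in eWAT, a 12.0-fold rise (log2 fold change 3.59 ± 0.36, adjusted p = 0.0169). Ifi27 stood at 433, 202, 24.1 and 22.5 CPM, a 13.6-fold rise (3.77 ± 0.49, adjusted p = 0.0208). Both libraries labelled Crtc1-/- lay far above both labelled Crtc1+/+ for each gene, although replicate 1 held more Ifi27 than replicate 2. Per length of transcript Ifi27l2a was the most abundant member in eWAT labelled Crtc1-/-, with a mean of 2467 FPKM against 261 FPKM in eWAT labelled Crtc1+/+. It supplied 20.02% and 22.3% of all member counts in the libraries labelled Crtc1-/-, against 4.46% and 5.22%. The third gene, Ifi27l2b, was lowly expressed at 3.24, 7.98, 0.626 and 0.207 CPM and was not called (3.72 ± 0.93, adjusted p = 0.0645). Ifi27 lies within the span annotated for Ifi27l2a, on the opposite strand, and their annotated exons share no base.

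The Oas family, whose main members make the 2-5A messenger that activates RNase L on sensing double-stranded RNA, had 4 of 7 tested members called, all higher, with a median of 1.96. Oasl1 stood at 21.1, 24.4, 3.61 and 3.32 CPM (2.71 ± 0.38, adjusted p = 0.0230), and Oas2 at 16.4, 13.8, 2.50 and 2.70 CPM (2.53 ± 0.43, adjusted p = 0.0304). For both genes the replicates of a group lay close together and the groups did not overlap. Oas1a stood at 48.4, 22.6, 7.08 and 5.03 CPM (2.55 ± 0.52, adjusted p = 0.0436), and Oasl2, the family's most abundant member in eWAT per length, at 109, 65.1, 23.8 and 21.0 CPM (1.96 ± 0.36, adjusted p = 0.0359). In these genes replicate 1 labelled Crtc1-/- was the highest library. Oas1a and Oas1g are near copies, and the count of each depends on how shared reads were divided. Oas1d had no count in any library, and Oas1e and Oas1f had at most 3 counts.

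Among the RNA-binding Ifit proteins and the ubiquitin-like modifier Isg15, 2 genes were called higher. Ifit3, a partner of Ifit1 in binding viral RNA, stood at 63.2, 38.6, 11.1 and 13.8 CPM (2.03 ± 0.39, adjusted p = 0.0387), a 4.08-fold rise. Isg15, which is attached to newly made proteins, stood at 56.7, 34.6, 10.9 and 8.82 CPM (2.21 ± 0.40, adjusted p = 0.0345), a 4.62-fold rise. The groups did not overlap for either gene. The other 3 tested Ifit genes, Ifit1, Ifit2 and Ifit3b, had log2 fold changes of 0.32 to 0.98 and were not called, and Ifit3b carries the same promoter letters as Ifit3 in the window shown above.

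Ifitm3, which blocks the fusion of viruses with endosomes, stood at 899, 831, 277 and 181 CPM in eWAT (1.92 ± 0.40, adjusted p = 0.0447) and was the only one of 6 tested Ifitm genes called. Its neighbour Ifitm2 stood at 559.8, 484, 250.5 and 186 CPM and was not called (1.26 ± 0.35, adjusted p = 0.0791). Ifitm2 and Ifitm3 together supplied 25.9% to 35.4% of all member counts in the 4 eWAT libraries and 56.0% to 67.2% in the liver libraries. Ifitm5, otherwise known from bone, stood at 1.26, 1.74, 0.144 and 0.0519 CPM. Both libraries labelled Crtc1+/+ lay at or under the floor, and the gene was at least 9.64-fold higher in those labelled Crtc1-/-, without being called (adjusted p = 0.0534).

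Of the guanylate-binding proteins, 2 of 8 tested in eWAT were called, both higher, and the family's median was 1.25. Gbp2 stood at 79.4, 48.1, 11.8 and 12.0 CPM, a 5.36-fold rise (2.42 ± 0.37, adjusted p = 0.0266). Gbp4 stood at 14.2, 15.6, 4.05 and 4.10 CPM, a 3.65-fold rise (1.87 ± 0.40, adjusted p = 0.0483). The replicates of each group nearly coincided for Gbp4, and the groups stood well apart for both genes. Gbp4, Gbp8 and Gbp9 share 60 or 61 exon bases, so their counts are not fully separate, and Gbp9, at 20.9, 24.4, 5.97 and 8.61 CPM, was not called (1.64 ± 0.39, adjusted p = 0.0593). Gbp8 had a log2 fold change of -1.14 (adjusted p = 0.317).

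**Figure D3:**
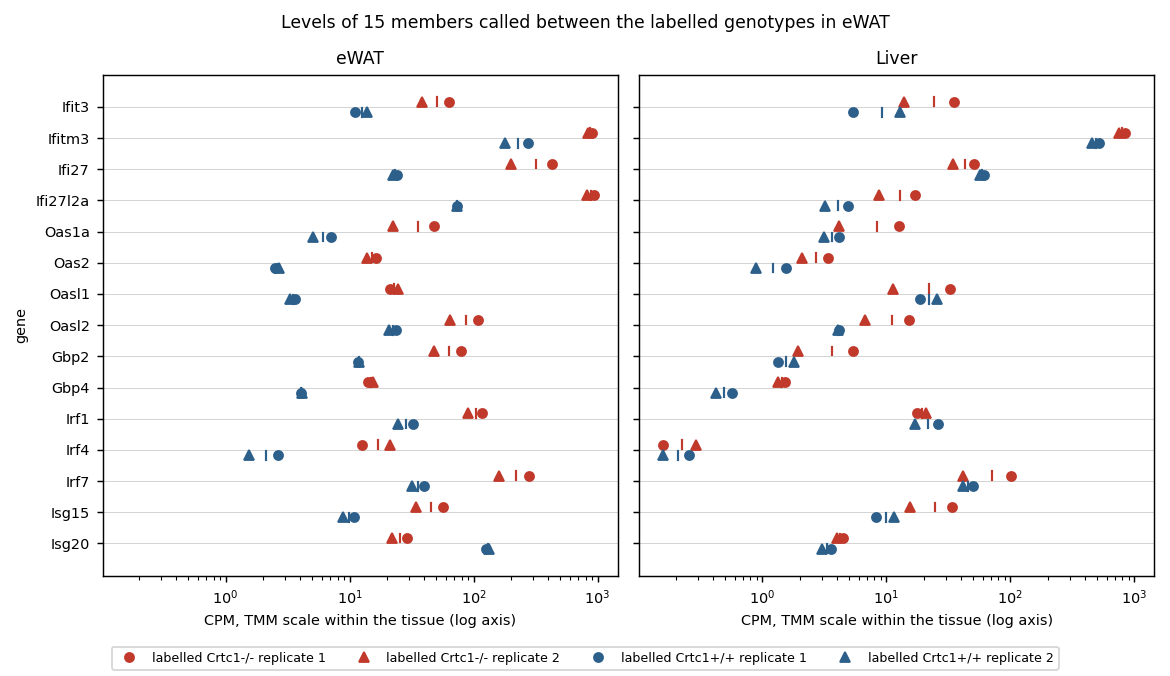
CPM on the TMM scale of each tissue (log x axis) in every library for 15 of the 16 members called in eWAT (y axis), with labelled Crtc1-/- in red, labelled Crtc1+/+ in blue and short vertical lines at the group means of 2 libraries. In eWAT no red point overlaps the blue points of the same gene, while in liver, where none of these genes was called, the groups of Irf1, Irf4, Irf7, Oas1a and Oasl1 overlap.

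Of the Irf genes 3 were called higher, all of them transcription factors of the family. The median was 0.68 over 12 tested, which include Irf2bp1, Irf2bp2 and Irf2bpl. Irf7, the factor that amplifies type I interferon production and is itself interferon-induced, stood at 278, 159.8, 39.8 and 31.8 CPM, a 6.11-fold rise (2.61 ± 0.40, adjusted p = 0.0263), and was the most abundant Irf gene per length in eWAT labelled Crtc1-/-, at a mean of 120.4 FPKM, but not in eWAT labelled Crtc1+/+, at 23.9 FPKM. Irf1, a factor induced by interferon gamma whose GAS letters are shown above, stood at 117, 90.6, 32.4 and 24.7 CPM (1.86 ± 0.31, adjusted p = 0.0299). Irf4, a factor of lymphocytes, macrophages and adipocytes that responds to fasting in fat, stood at 12.5, 21.2, 2.65 and 1.56 CPM (3 ± 0.55, adjusted p = 0.0355). For each of these 3 genes both libraries labelled Crtc1-/- exceeded both labelled Crtc1+/+.

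The constitutive factor Irf3 stood at 79.9, 92.6, 57.4 and 45.1 CPM and was not called (0.75 ± 0.28, adjusted p = 0.143). Irf9, Irf2bp1, Irf2bp2 and Irf2bpl had log2 fold changes of -0.25 to 0.35, and none was called. Exons of Irf7 and Irf1 share 45 and 100 bases with other genes of the annotation, which limits how far single-gene counts can be separated.

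Isg20, an exonuclease that degrades viral RNA, fell. It stood at 28.9, 21.8, 126 and 134 CPM, 5.13-fold lower in the libraries labelled Crtc1-/- (-2.36 ± 0.30, adjusted p = 0.0197). Both libraries labelled Crtc1+/+, those with epididymis RNA, were high, and the part of that RNA in the value was not tested. Neither Irgm1, at 34.0, 37.8, 16.9 and 23.0 CPM (0.85 ± 0.33, adjusted p = 0.151), nor the RNA sensor Ifih1, at 7.64, 10.7, 3.71 and 6.48 CPM (0.85 ± 0.52, adjusted p = 0.302), was called, although the groups did not overlap for either gene.

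Upstream of the members, 4 of the 21 listed interferon genes were in the table, and none had enough counts to be tested: Ifna13 and Ifna14 were at 0 in every library, and Ifng and Ifnz reached at most 0.275 and 0.165 CPM. Of the 6 receptor genes, 2 were called higher in eWAT. The type I receptor chain Ifnar2 stood at 202, 195, 71.2 and 58.9 CPM (1.61 ± 0.28, adjusted p = 0.0324), and the interferon gamma receptor chain Ifngr1 at 196, 164, 64.9 and 78.5 CPM (1.33 ± 0.29, adjusted p = 0.0494). Their partner chains were not called: Ifnar1 stood at 66.6, 60.2, 54.3 and 69.3 CPM (0.04, adjusted p = 0.935), and Ifngr2 at 66.8, 43.7, 101 and 158 CPM (-1.23, adjusted p = 0.1003).

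None of 5 JAK and STAT genes was called in eWAT by edgeR's quasi-likelihood test, and 2 of them had an unadjusted p under 0.05. Stat2 stood at 44.9, 51.4, 19.5 and 28.9 CPM (0.99, adjusted p = 0.117). It was higher in both libraries labelled Crtc1-/- than in the others. Of the 15 tested sensors and adaptors 1 was called, Mavs, the mitochondrial adaptor of the RNA sensors, at 72.3, 83.1, 31.3 and 32.6 CPM (1.28, adjusted p = 0.0448). Of the 5 brakes of the pathway 2 were called higher: Usp18, which removes Isg15 from proteins and blocks the receptor, at 33.3, 34.1, 7.51 and 7.52 CPM (2.16 ± 0.33, adjusted p = 0.0260), and Socs3.

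A further list of 52 interferon-stimulated genes outside the families had 23 called in eWAT, all higher (6.65% of all genes), with a median of 1.90. This list, like the other pathway lists, was chosen with earlier results of these data known. Cxcl9, a chemokine induced by interferon gamma, stood at 79.9, 54.9, 3.76 and 4.77 CPM (3.98 ± 0.39, adjusted p = 0.0169). Rsad2, which encodes the antiviral enzyme viperin, stood at 30.9, 30.4, 4.91 and 7.36 CPM (2.32 ± 0.39, adjusted p = 0.0296). Neither gene overlapped between the groups. The others named by the rule were Helz2 (3.10 ± 0.30), Tor3a (2.25 ± 0.29), the tether of budding virus Bst2 (2.91 ± 0.42) and Parp14 (1.99 ± 0.30), with adjusted p of 0.0169, 0.0205, 0.0236 and 0.0260. Over all of these pathway lists 28 of 83 tested genes were called higher (6.65% of all genes) and 0 lower (5.54%) in eWAT. At an unadjusted p under 0.05 in the same test, 47 were higher (16.2% of all genes) and 3 lower (17.1%).

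Markers of several cell types moved together with the members in eWAT. The 10 endothelial markers summed to 4921 and 2857 CPM (of library totals) under the label Crtc1-/- and to 381 and 388 CPM under Crtc1+/+, all 10 were called higher and their median log2 fold change was 3.12. The 12 macrophage markers summed to 1806 and 743 CPM against 496 and 264 CPM, and 2 of 12 were called higher, 10 at an unadjusted p under 0.05, with a median of 1.78. The 10 adipocyte markers had 8 called higher and a median of 3.69, and the 12 epididymis markers had 12 called lower. No endothelial, macrophage or adipocyte marker was at 0 in an eWAT library.

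Most tested T, NK and B cell markers had negative log2 fold changes, and only Klrb1c was called. The 10 T and NK cell markers summed to 81.9 and 12.4 CPM against 200.2 and 180.1 CPM. Of these, 7 of 9 tested were negative, with a median of -0.59. Klrb1c was called lower, and the largest rise, that of Gzma at 3.58 ± 1.197 (log2, adjusted p = 0.114), was not called. The 5 B cell markers summed to 12.2 and 6.24 CPM against 61.5 and 0.795 CPM, with Pax5 and Ms4a1 among those at 0 in the last. These sums overlap between the groups. All 3 tested B cell markers were negative and none was called. The 6 listed plasmacytoid dendritic cell genes summed to 348 and 246 CPM against 83.6 and 59.0 CPM, but the called genes were Tcf4 and Bst2, the latter also on the list of interferon-stimulated genes, while the defining marker Siglech stood at or below 1.78 CPM and Ccr9 at 0 in 2 of the eWAT libraries. Only 4 of the 59 members (Ifi27, Ifi27l2a, Ifi27l2b and Ifitm5) had a log2 fold change above the median of the endothelial markers, and 20 of 59 lay above that of the macrophage markers. The part of any of these cell types in the members' values was not tested.

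**Figure D4:**
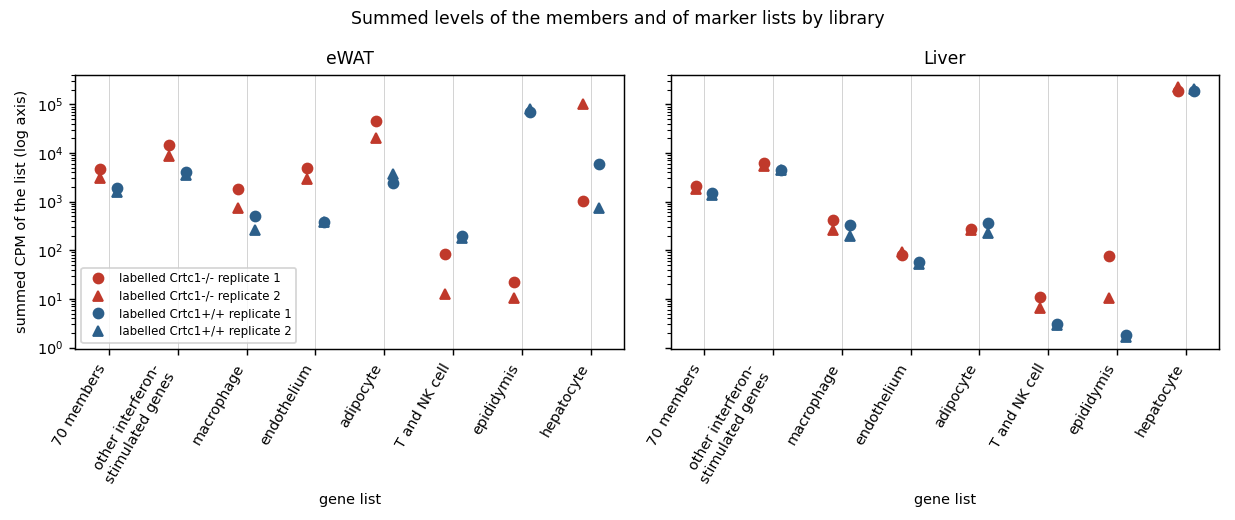
Summed CPM of library totals (log y axis) of the 70 members and of marker lists (x axis) in each eWAT and liver library, with labelled Crtc1-/- in red and labelled Crtc1+/+ in blue. The members sum to 4608 and 3036 CPM against 1862 and 1547 CPM in eWAT, where the epididymis list runs the other way and the hepatocyte list is highest in labelled Crtc1-/- replicate 2.

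In liver, none of 50 tested members was called by edgeR's quasi-likelihood test, in which 0.0854% of 11707 genes were called, and DESeq2 called 4 members (Ifi27l2a, Ifi27l2b, Isg15 and Oasl2) and limma 0. At an unadjusted p under 0.05, 23 of 50 members were higher in the libraries labelled Crtc1-/-, against 9.73% of all genes, and 0 were lower, against 7.6%. At an unadjusted p under 0.01 with a change over 2-fold, 6 were higher (2.84% of all genes) and 0 lower (1.43%). The median log2 fold change was 0.92, against 0.00 over all genes, and 42 of 50 were positive, against 50.3%. The members' median depended on the setting. It was 0.41 over the 33 members with a mean count of at least 50, of which 25 were positive. With limma it was 0.27 on log2(FPKM + 1) and 0.64 on log2(FPKM + 0.1), with 38 of 50 positive on each. The groups did not overlap for 26 members that were higher (25.8% of all genes) and 4 that were lower (26.4%). By family the medians were 1.501 for Gbp, 1.42 for Ifit, 1.17 for Oas, 0.92 for Ifi and 0.72 for Ifitm. They were 0.03 for Irf, with Irf2bp1, Irf2bp2 and Irf2bpl among its genes, and -0.31 for Irgm. The Gbp genes were low in liver, with sums of 30.2, 12.3, 5.98 and 9.15 CPM of library totals.

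The 3 members with the lowest p in liver were Ifi27l2b, Ifi27l2a and Gbp9. Ifi27l2b stood at 13.9, 11.2, 4.21 and 4.09 CPM (1.60 ± 0.29, adjusted p = 0.0830), Ifi27l2a at 17.1, 8.75, 4.88 and 3.20 CPM (1.68 ± 0.39, adjusted p = 0.128) and Gbp9 at 2.15, 1.81, 0.616 and 0.630 CPM (1.66 ± 0.45, adjusted p = 0.162). All 3 were higher in both libraries labelled Crtc1-/-. Isg15 stood at 33.6, 15.4, 8.27 and 11.4 CPM (1.31 ± 0.38, adjusted p = 0.173) and Ifit3 at 34.7, 13.9, 5.39 and 12.9 CPM (1.42 ± 0.49, adjusted p = 0.217). For both genes replicate 1 labelled Crtc1-/- stood apart from the other libraries. Ifitm3, the most abundant member in liver per length, stood at 846, 756, 521 and 451 CPM (0.72 ± 0.25, adjusted p = 0.217), with means of 1603 and 959 FPKM.

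The libraries labelled Crtc1-/- differed from each other in liver. Replicate 1 was above replicate 2 in 41 of 50 members (82.0%, against 49.6% of all genes), by over 2-fold in 16 of them. The replicates labelled Crtc1+/+ split 24 of 50. Without replicate 1 labelled Crtc1-/-, the members' median was 0.33 and 4 of 50 members were called (Ifi27l2a, Ifi27l2b, Ifitm1 and Irgm2), where 12.5% of all genes were. Without replicate 2 it was 1.21 and 8 of 56 were called, where 1.46% of all genes were (Gbp6, Ifi27l2a, Ifi27l2b, Ifit3, Ifit3b, Isg15, Oas1a and Oasl2). No member was called without either library labelled Crtc1+/+. In liver the 10 T and NK cell markers summed to 11.1 and 6.40 CPM under the label Crtc1-/- and to 3.04 and 2.91 CPM under Crtc1+/+, all 5 that could be tested were higher without overlap, and Ncr1 was at 0 in 2 libraries. The 12 macrophage markers summed to 425 and 258 CPM against 337 and 197 CPM, with a median of 0.27, and none was at 0. The 10 endothelial markers summed to 80.8 and 92.0 CPM against 57.9 and 51.2 CPM, with a median of 0.67, 9 of 10 positive, 6 higher without overlap and 4 at an unadjusted p under 0.05. Both B cell and both epididymis markers that could be tested were also higher, at an unadjusted p under 0.05. The part of these cell types was not tested. None of 76 tested pathway genes was called in liver by edgeR's test, and their median was 0.25. At an unadjusted p under 0.05 in that test, 9 were higher (9.73% of all genes) and 3 lower (7.6%).

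Of the 49 members tested in both tissues, 37 were higher in the libraries labelled Crtc1-/- in both (75.5%, against 27.4% of all 11577 genes), 6 were higher in eWAT alone, 4 in liver alone, and 2 were lower in both. The tissues do not share libraries. The paper describes taking liver and eWAT pieces from the selected mice, so both tissues appear to come from the same animals. Which liver and eWAT libraries belong to the same mouse is not stated. The shared direction was therefore not shown in separate sets of mice. Across these 49 genes, which are not independent, Pearson's r between the log2 fold changes of the tissues was 0.21 and Spearman's rho 0.27, with -0.02 and 0.00 over all genes.

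**Figure D5:**
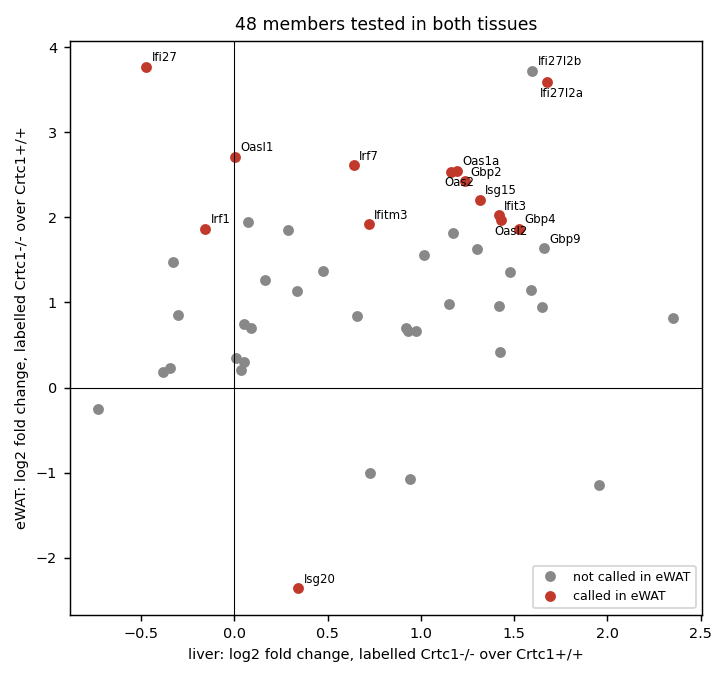
Log2 fold change of labelled Crtc1-/- over Crtc1+/+ in liver (x axis) and in eWAT (y axis) for 48 of the 49 members tested in both tissues, 1 point per gene without error bars, with members called in eWAT in red. Most points (37) lie in the upper right, Ifi27 and Irf1 are higher in eWAT alone, and Isg20 is lower in eWAT alone.

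A test of the difference between the tissues, the interaction of tissue and labelled genotype in 1 fit of all 8 libraries, called 3 of 60 members, against 6.94% of 15587 genes. Ifi27 rose in eWAT as described and stood at 50.8, 34.6, 61.6 and 56.8 CPM in liver, where the libraries labelled Crtc1-/- were the lower ones, and the difference was 4.12 ± 0.53 (log2, adjusted p = 0.0113). Irf1 stood at 17.7, 21.0, 25.9 and 17.1 CPM in liver with overlapping groups, a difference of 1.93 ± 0.39 (adjusted p = 0.0350). This call was lost with upper-quartile scaling (1.74, adjusted p = 0.0608) and with library-size scaling (1.67, adjusted p = 0.0930). Isg20 stood at 4.46, 3.97, 3.59 and 3.04 CPM in liver, a difference of -2.79 ± 0.29 (adjusted p = 0.00950). None of the 3 calls remained without liver labelled Crtc1+/+ replicate 1 or without replicate 2. Without eWAT labelled Crtc1+/+ replicate 1 the call of Irf1 was lost, as it was without liver labelled Crtc1-/- replicate 1, and without eWAT labelled Crtc1+/+ replicate 2 or liver labelled Crtc1-/- replicate 2 those of Ifi27 and Irf1 were.

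Oasl1 also differed in its levels between the tissues, at 32.6, 11.3, 18.5 and 25.4 CPM in liver with a log2 fold change of 0.00, yet its interaction was not called (2.63, adjusted p = 0.0652). The median interaction of the members was 0.41, against -0.21 over all genes. Apart from Ifi27 and Irf1, no member called higher in eWAT had a called interaction, and none was called in liver, where Irf4 was not tested. These were Oasl1, Ifi27l2a, Ifit3, Isg15, Oas1a, Oas2, Oasl2, Gbp2, Gbp4, Irf7, Irf4 and Ifitm3. Their changes were thus not shown to differ between the tissues. Of the pathway lists 10 of 83 interactions were called (6.94% of all genes), all higher in eWAT. They included Usp18 (1.80, adjusted p = 0.0333) and Mavs (2.25, adjusted p = 0.0306), which stood at 69.0, 44.4, 125 and 108 CPM in liver, the reverse of its order in eWAT.

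Within the libraries labelled Crtc1+/+, the families had no common tissue preference: 15 of 60 members were called higher and 15 lower in eWAT than in liver, against 35.0% and 19.8% of all genes (54.9% in all). The members' median was 0.08 and that of all genes 0.61 (log2, eWAT over liver). This split rests on the scaling, because scaling by library totals moved the 2 medians to 1.48 and 2.003 and the calls to 33 higher of 36. It also rests on eWAT libraries that hold epididymis RNA, so these are levels of the dissected samples. The following CPM are scaled over all 8 libraries, with eWAT replicates 1 and 2 before those of liver.

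Isg20 was the member with the largest preference for eWAT, at 85.0 and 88.2 against 5.55 and 4.72 CPM (4.07 ± 0.23, adjusted p = 0.000437). Ifi205, a nuclear HIN-200 protein, stood at 1.73 and 1.87 against 0.0793 and 0.326 CPM (3.12 ± 0.77, adjusted p = 0.0144), and Ifitm10, with liver at or under the floor, was at least 3.80-fold higher in eWAT (adjusted p = 0.0311). In the other direction Ifi27l2b stood at 0.424 and 0.136 against 6.502 and 6.35 CPM (-4.48 ± 0.69, adjusted p = 0.00277), and Oasl1 at 2.44 and 2.18 against 28.5 and 39.4 CPM (-3.87 ± 0.53, adjusted p = 0.00195). Gbp10, with eWAT at or under the floor, was at least 12.6-fold lower in eWAT (adjusted p = 0.0158). The Ifi27 genes were thus placed differently, since Ifi27 was lower in eWAT than in liver (-2.56) and Ifi27l2a higher (2.97), both called, while both rose in eWAT labelled Crtc1-/-.

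The members not named above were low or did not pass the test. Of the 70, Ifi202b, Ifi214, Ifi44l and Oas1d had no count in any library, and between 60 and 66 were detected in a library. Counts of 18 members (25.7%) were not whole numbers in at least 1 library, against 13.3% of all genes.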

How the data were processed

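The authors deposited estimated counts per gene, not normalized, and FPKM, which scale fragments by transcript length and library total. The submitters' processing notes name HISAT, Bowtie2 and GRCm38.p6, without roles. The counting tool and strand setting are not given in the sources used here. Each group had 2 libraries, of 16560085 to 19721481 counts, and counting error is therefore small except for the lowest genes. No column belonged to a sample outside the series (0).

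Counts were rounded, filtered by filterByExpr and scaled by TMM within each tissue, or over all 8 libraries for the interaction and for tissue, and tested by edgeR 4.0.16 (quasi-likelihood, R 4.3.3) adjusted by Benjamini and Hochberg's method across the table. Standard errors are the log2 fold change over the root of F. Summed CPM of lists use library totals. Alternatives were DESeq2 1.42.0, limma 3.58.1 on log2(FPKM + 1) and log2(FPKM + 0.1), other scalings, no filter or a mean count of at least 50, all 8 libraries in 1 fit, the replicate block, epididymis genes removed, and each library left out. The tests were tried on simulated data. Promoters were read from RefSeq and exon overlaps from the annotation.

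Members named with every library's value were those called, the most abundant per family and tissue by FPKM, the 3 of lowest p in liver and the 3 most different between tissues in each direction. Of the pathway lists they were the 5 of lowest p in eWAT and 8 named genes. A few genes that this rule names are not reported here. Ifi27l2b and Gbp9 in eWAT, Ifitm2, Ifitm5, Mavs and the ranges of other members were given after their values were seen. Members and lists were chosen with earlier results of these data known. Figures used Python 3.11.15 with pandas 2.3.3 and matplotlib 3.10.9.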

Additional observations from a re-analysis of the deposited data

Results flagged for a closer look

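The interaction test of edgeR over all 8 libraries called 3 of 60 members, against 6.94% of 15587 genes. For these 3 the effect of the labelled genotype differed between eWAT and liver. The difference (eWAT minus liver, log2) was 4.12 for Ifi27, which was higher in eWAT and lower in liver in both libraries labelled Crtc1-/-. It was 1.93 for Irf1, which was higher in eWAT and overlapped between the groups in liver. The call of Irf1 was lost with upper-quartile and with library-size scaling. The difference was -2.79 for Isg20, which was lower in eWAT and not called in liver (0.34, adjusted p = 0.631). With 1 library left out, the differences ran from 3.62 to 4.66 for Ifi27, 1.61 to 2.20 for Irf1 and -2.91 to -2.54 for Isg20. The calls lost in those fits are given above. The eWAT libraries labelled Crtc1+/+ also differed from all the others in their epididymis markers, at 70754 and 80254 CPM against at most 75.2 CPM elsewhere, and the part of this in the 3 values was not tested. Groups of 2 libraries were too small to look for single outlying samples.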

How the results depend on the processing

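In eWAT, where 16 members were called, 8 were called with library-size scaling (6 higher) and 28 with DESeq2, and 0 to 17 with 1 library left out. Of all genes 1875 were called (1023 higher), with upper-quartile scaling 1740 (744 higher), with library-size scaling 1662 (587 higher), with DESeq2 4620, with all 8 libraries in 1 fit 3861 and with 1 library left out 0 to 3073. In liver, where 0 members were called, DESeq2 called 4, the test without an expression filter 3, and the leave-one-out fits 0 to 8. Of all liver genes 10 were called, with DESeq2 311, with limma 0 on both FPKM scales, without a filter 301, with all 8 libraries in 1 fit 0 and with 1 library left out 1 to 1507. For the interaction 3 members were called, with DESeq2 7, with limma 12 on log2(FPKM + 1) and 10 on log2(FPKM + 0.1), and with 1 library left out 0 to 7. Of all genes 1081 had a called interaction (589 higher), with upper-quartile scaling 965 (420 higher), with library-size scaling 705 (262 higher), with DESeq2 2056, with limma 2533 and 2390, and with 1 library left out 0 to 2261. Between the tissues within labelled Crtc1+/+, leaving out 1 library gave 15 to 30 called members and 4285 to 8872 called genes. The cause of these differences was not tested.

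Of 2126 alternative values of named genes, 89 changed sign, 77 of them called under neither setting. The other 12 concerned eWAT against liver within labelled Crtc1+/+ (log2). With library-size scaling Oas2 was at 1.27, Irf1 at 0.60, Isg15 at 0.19, Ifih1 at 0.12, Parp14 at 0.43 and Ifnar1 at 1.30. With limma on log2(FPKM + 1) and log2(FPKM + 0.1), Irf4 was at -0.24 and -0.83, Gbp4 at -0.27 and -0.75, and Gbp9 at -0.0547 and -0.16. Of all the values without such a reversal, 1826 lay on the same side of the threshold, 226 were no longer past it and 62 were newly past it.

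Replicate numbers were not shown to pair the libraries: deviations of equal numbers correlated at 0.0086 in eWAT, 0.0516 in liver, 0.152 across tissues within labelled Crtc1+/+ and 0.0356 within labelled Crtc1-/-. With the replicate block 0 members and 0 genes were called in eWAT, 2 members and 82 genes in liver, and 5 members for the interaction.

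Groups of 2 libraries limit every comparison, and all eWAT calls need both libraries labelled Crtc1+/+. Members near 0.152 to 0.181 CPM, the floor, cannot show a difference at this depth, and tissue content and labelled genotype cannot be told apart in eWAT.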
